A study of Mus musculus with 30 samples.

Results

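Cacnb3, which encodes the β3 subunit of voltage-gated calcium channels, was followed together with 9 genes that mark mature migratory dendritic cells (DCs). These were Ccr7, Fscn1, Il4i1, Socs2, Samsn1, Marcksl1, Tmem123, Nudt17 and Fabp5. The 10 genes were chosen by name and found by Ensembl identifier among the 43629 genes of the count table, and all 10 passed edgeR's filter on low counts, as did 13755 genes in all. The questions were how the levels of the other 9 genes related to Cacnb3 across 30 RNA sequencing libraries, and whether any of the 10 differed between genotypes or between time points.

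The libraries came from BMDCs, which are DCs grown from mouse bone marrow, here for 6 days in medium with GM-CSF. Marrow came from mice of 6 to 12 weeks, and the study used both sexes, matched for sex and age. There were 5 WT cultures and 5 cultures labelled Cacnb3-/-, each with 1 library named ctrl, 1 named 0p5h and 1 named 24h, so that each of the 6 groups held 5 libraries. The study describes BMDCs without stimulation and BMDCs taken 30 min or 24 h after a pulse of 500 µM ATP that lasted 30 min, while the labels put the earlier harvest directly at the end of the pulse. The treatment field puts the libraries named ctrl at 30 min of ATP and those named 0p5h at vehicle, against their names, and only the 24h set has the same reading in both. The libraries of one name, a set, are therefore called here by that name. WT mice were C57BL/6J and Cacnb3-/- mice C57BL/6N, so the deletion and the substrain cannot be told apart in any comparison of genotypes. The labels do not say whether a culture is 1 animal, and p-values measure the spread between the numbered cultures. In bulk RNA, fewer cells of a type and less RNA per cell cannot be told apart.

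Mature migratory DCs are the DCs that have left a tissue, or have been activated in culture, and travel to lymph nodes. Their transcriptional programme couples chemokine-guided movement and a rebuilt actin cytoskeleton with feedback genes that limit inflammation. CCR7 is the receptor that guides them along CCL19 and CCL21, and fascin, the product of Fscn1, bundles actin in their long protrusions. In GM-CSF cultures, a share of the BMDCs matures spontaneously and turns on these genes.

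The reads assigned to genes numbered 8237393 to 32164225 per library (median 19556920), and the group with the lowest median, 11986891, was that labelled Cacnb3-/- and named 24h. Of 8 DC markers, such as H2-Aa, Cd74, Flt3 and Zbtb46, 8 were kept, and their summed level ranged from 14800 to 43800 CPM, the count per 1000000 after TMM normalization. The summed level of 10 macrophage markers ranged from 1010 to 5170 CPM and that of 10 granulocyte markers from 131 to 693 CPM. T cell markers (5 genes) summed to 4.87 to 22.2 CPM, mostly Cd8a, with Cd3e at 5 reads or fewer, and 4 B cell markers to 0.613 to 5.03 CPM. The 5 genes of cycling cells summed to 14.4 to 32.6 CPM. Nnt, a gene disrupted in C57BL/6J, was at 5.82 to 11.6 CPM in all groups. In the ctrl set it was at 6.38 to 9.26 CPM in WT and 6.8 to 8.91 CPM in libraries labelled Cacnb3-/-. The genotypes overlapped in each set, so its level did not show the stated difference in substrain. Libraries also differed in a trend of counts with the GC content of genes. This tilt, the mean of genes with 58 to 62% GC minus that of genes with 40 to 44% GC on the log2 scale, lay between -0.76 and 0.35 in the ctrl and 0p5h sets. In WT libraries of the 24h set it was 0.07 to 0.92, and -0.91 to 0.12 in libraries labelled Cacnb3-/-. Cacnb3 has a GC content of 62%, Fscn1 60.6% and Il4i1 60.5%, against 48.5% for Tmem123, 46.8% for Socs2 and 43.5% for Samsn1, so values with and without this trend are given below.

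Promoter sequences of 300 bases (250 before and 50 after a transcription start, GRCm38.p6, RefSeq) were found for 7 of the 10 genes. Ccr7, Socs2 and Fabp5 had none. Shown first are Cacnb3 and the 2 of the other 9 genes whose levels were closest to it across libraries, Nudt17 and Fscn1.
Cacnb3, chr15:98632078-98632377, forward strand: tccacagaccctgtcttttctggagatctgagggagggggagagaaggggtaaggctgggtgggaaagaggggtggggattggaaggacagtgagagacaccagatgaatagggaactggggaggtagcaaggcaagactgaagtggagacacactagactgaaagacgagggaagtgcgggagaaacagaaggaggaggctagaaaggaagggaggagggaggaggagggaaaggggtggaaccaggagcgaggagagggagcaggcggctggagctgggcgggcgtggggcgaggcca
Nudt17, chr3:96708511-96708810, reverse strand: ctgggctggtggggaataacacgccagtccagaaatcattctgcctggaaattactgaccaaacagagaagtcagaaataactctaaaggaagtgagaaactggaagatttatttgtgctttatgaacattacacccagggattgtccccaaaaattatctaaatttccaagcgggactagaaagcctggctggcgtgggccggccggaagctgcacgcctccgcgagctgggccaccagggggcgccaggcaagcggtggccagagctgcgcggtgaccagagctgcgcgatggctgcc
Fscn1, chr5:142960105-142960404, forward strand: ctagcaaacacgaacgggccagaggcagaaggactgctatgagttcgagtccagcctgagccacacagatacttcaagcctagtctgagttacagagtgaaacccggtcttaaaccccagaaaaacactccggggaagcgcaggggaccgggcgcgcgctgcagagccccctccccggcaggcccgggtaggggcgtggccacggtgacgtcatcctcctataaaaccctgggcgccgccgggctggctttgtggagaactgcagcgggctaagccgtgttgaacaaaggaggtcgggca
The next are Il4i1, which went with Ccr7, and Samsn1, which went with Tmem123. Capitals mark matches to a PU.1 motif, GAGGAAGT on either strand.
Il4i1, chr7:44836038-44836337, forward strand: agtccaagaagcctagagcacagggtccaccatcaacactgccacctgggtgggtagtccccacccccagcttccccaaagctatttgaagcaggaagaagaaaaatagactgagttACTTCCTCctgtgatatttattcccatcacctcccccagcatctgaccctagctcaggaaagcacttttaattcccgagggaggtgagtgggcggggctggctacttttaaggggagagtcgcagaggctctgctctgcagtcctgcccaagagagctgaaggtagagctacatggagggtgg
Samsn1, chr16:75909217-75909516, reverse strand: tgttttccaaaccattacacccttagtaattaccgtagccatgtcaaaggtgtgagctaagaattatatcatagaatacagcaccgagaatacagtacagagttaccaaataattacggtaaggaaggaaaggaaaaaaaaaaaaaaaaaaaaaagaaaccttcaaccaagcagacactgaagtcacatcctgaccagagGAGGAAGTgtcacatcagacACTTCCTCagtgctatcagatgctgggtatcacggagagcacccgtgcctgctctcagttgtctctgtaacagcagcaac
Of 3 motifs searched on both strands, a κB motif (GGG, any 2 bases, then TTTCC) stood in 1.63% of 32851 promoter windows, a STAT motif (TTCNNNGAA) in 8.3% and the PU.1 motif in 3.2%. PU.1 is the transcription factor that sets up the myeloid lineage. In the 9 windows of these genes, 0 held the κB or the STAT motif. The PU.1 motif began at base 118 of the Il4i1 window and at bases 201 and 221 of the Samsn1 window. The windows of Cacnb3, Nudt17 and Fscn1 held none of the 3 motifs.

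Per kilobase of exon, Ccr7 was the most abundant of the 10 genes, with a median of 1990 RPKM over the 30 libraries, followed by Tmem123 (1680 RPKM) and Fscn1 (1210 RPKM). Ccr7 ranked 27th, Tmem123 29th and Fscn1 34th by mean RPKM among the 13755 genes kept. Marcksl1 (544 RPKM), Il4i1 (452 RPKM), Cacnb3 (377 RPKM), Fabp5 (235 RPKM), Samsn1 (199 RPKM) and Nudt17 (135 RPKM) followed, and Socs2 was lowest at 27.3 RPKM. Ranges of neighbours in this order overlapped, with the exception of Nudt17 (59.9 to 218 RPKM) and Socs2 (16.1 to 56.2 RPKM). All values that follow are CPM, which compare a gene between libraries but not genes with each other.

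Cacnb3 (chr15:98632220-98644530, forward strand) was counted in libraries of both genotypes, with a ratio of group means between 0.572 and 0.811. A count over the whole gene does not show which exons were read, so it does not check the labelled deletion, and the genotypes are given here as labelled. In the ctrl set it reached 1380, 1410, 1170, 1180 and 1200 CPM in WT cultures p974s846, p974s850, p974s855, p974s856 and p974s864. In the cultures labelled Cacnb3-/-, p974s843, p974s851, p974s852, p974s853 and p974s865, it was 1330, 1020, 939, 1070 and 792 CPM. The genotypes overlapped through culture p974s843, and the order of cultures was not kept at later names. In the 24h set, in the same order, the WT cultures had 1330, 1640, 1350, 1900 and 2170 CPM. The cultures labelled Cacnb3-/- had 547, 1010, 1100, 828 and 1320 CPM. The highest library labelled Cacnb3-/- lay just below the lowest WT library, so the genotypes did not overlap. Culture p974s843 went from 1330 CPM in the ctrl set to 547 CPM in the 24h set.

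**Figure D1:**
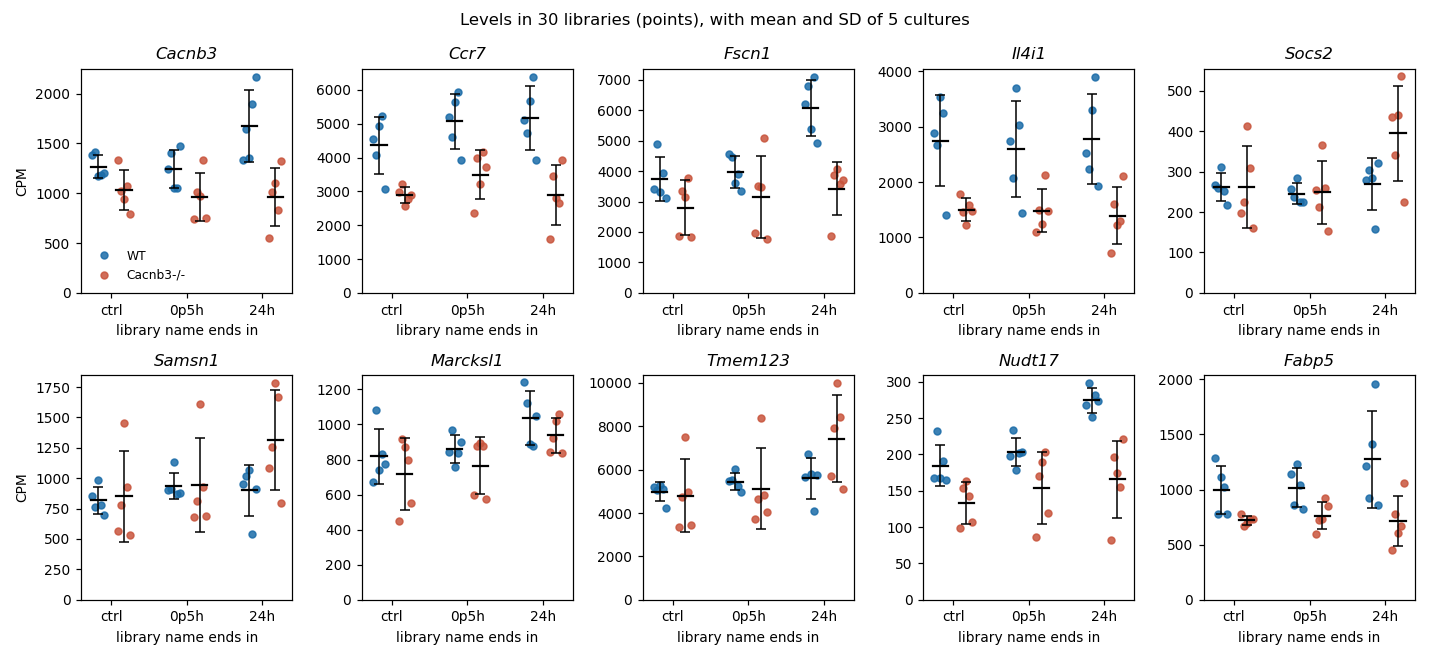
CPM of the 10 genes in each library (points) by set (x axis) and genotype (WT blue, Cacnb3-/- red), with the mean and SD of 5 cultures. In the 24h set, Cacnb3, Fscn1 and Nudt17 have every WT library above every library labelled Cacnb3-/-, while Socs2, Samsn1 and Tmem123 have higher means in libraries labelled Cacnb3-/-.

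Among the genes of movement, Ccr7 (chr11:99144196-99155077, reverse strand) was lower on average in BMDCs labelled Cacnb3-/- in each set. Its values in the 24h set were 5100, 4740, 5680, 6390 and 3920 CPM in the WT cultures. The cultures labelled Cacnb3-/-, in the order above, had 1590, 3460, 2790, 2660 and 3940 CPM. They overlapped only because culture p974s865, labelled Cacnb3-/-, was level with WT culture p974s864, the lowest of its genotype. In the ctrl and 0p5h sets, WT reached 4360 ± 848 and 5070 ± 806 CPM, and Cacnb3-/- 2880 ± 241 and 3490 ± 719 CPM (SD, n = 5).

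Fscn1 (chr5:142960343-142973185, forward strand) was at 6210, 6780, 5370, 7100 and 4910 CPM in the WT libraries named 24h. In the libraries labelled Cacnb3-/- it was at 1880, 3870, 4070, 3580 and 3720 CPM. The genotypes did not overlap, and p974s843 stood far below the other 4 libraries labelled Cacnb3-/-. In the ctrl set they did overlap, with 3740 ± 710 CPM in WT and 2790 ± 896 CPM in BMDCs labelled Cacnb3-/- (SD, n = 5). Marcksl1 (chr4:129513581-129515985, forward strand), which encodes an actin-regulating MARCKS-like protein, overlapped between genotypes in each set, with group means from 717 to 1040 CPM.

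Il4i1 (chr7:44816370-44840809, forward strand) encodes a secreted enzyme that degrades phenylalanine and dampens T cell responses. It had the lowest ratio between genotypes of the 10 genes in each set. In the ctrl set, WT cultures had 2890, 2660, 3540, 3250 and 1400 CPM. The cultures labelled Cacnb3-/- had 1780, 1460, 1220, 1580 and 1470 CPM. WT culture p974s864 alone lay within the Cacnb3-/- range. The means in the 24h set were 2770 ± 806 and 1390 ± 516 CPM (SD, n = 5), a ratio of 0.501. The annotated span of Il4i1 overlaps Atf5 on the other strand and another gene on its own strand. Counting took no account of strand, so reads of shared stretches could not be assigned.

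Socs2 and Samsn1 restrain signalling in immune cells, SOCS2 as a feedback inhibitor of cytokine receptors and SAMSN1 as an adaptor. Socs2 (chr10:95385362-95417180, reverse strand) was at 279, 304, 284, 158 and 322 CPM in WT libraries named 24h. The libraries labelled Cacnb3-/- had 435, 340, 440, 536 and 224 CPM. Here 4 of 5 libraries labelled Cacnb3-/- lay above all 5 WT libraries, and p974s865 lay below 4 of them. Samsn1 (chr16:75858793-76022270, reverse strand) was at 956, 1020, 1070, 541 and 908 CPM in WT libraries named 24h. The libraries labelled Cacnb3-/- had 1080, 1260, 1780, 1670 and 793 CPM, with the same 4 cultures above WT. The ctrl set means of both genes were close, with 262 ± 34.2 and 261 ± 102 CPM for Socs2 and 818 ± 110 and 850 ± 371 CPM for Samsn1 in WT and BMDCs labelled Cacnb3-/- (SD, n = 5).

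Tmem123 (chr9:7764041-7794333, forward strand) encodes a cell-surface mucin-like protein. It was at 5650, 6700, 5790, 4070 and 5770 CPM in WT libraries named 24h. The libraries labelled Cacnb3-/- had 5690, 7900, 10000, 8440 and 5110 CPM. Cultures p974s851, p974s852 and p974s853 were above all WT libraries, and the other 2 were within their range. Fabp5 (chr3:10012548-10016607, forward strand) encodes a fatty acid carrier. Its mean in WT libraries named 24h was 1270 ± 442 CPM (SD, n = 5), with the highest, 1960 CPM, in p974s856. Libraries labelled Cacnb3-/- and named 24h had 447, 776, 605, 672 and 1060 CPM. The genotypes overlapped through p974s865 again.

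Nudt17 (chr3:96705892-96708560, reverse strand), a member of the Nudix hydrolase family, separated the genotypes in 2 of 3 sets. In the ctrl set, WT cultures had 167, 232, 168, 191 and 165 CPM. The cultures labelled Cacnb3-/- had 98.6, 154, 163, 143 and 107 CPM, all below WT. In the 24h set, WT cultures had 268, 298, 252, 282 and 274 CPM. The cultures labelled Cacnb3-/- had 81.6, 196, 174, 155 and 222 CPM, again all below WT (exact permutation test, two-sided, p = 0.00794 in each set, the smallest that 5 against 5 allow, unadjusted). In the 0p5h set they overlapped, with 203 ± 19.7 and 154 ± 49.6 CPM (SD, n = 5). The span of Nudt17 overlaps Pias3 on the other strand, and the same limit on strand holds. Near-copies by name were at most at 5 reads per library, for Fabp5 and Marcksl1.

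Genotypes were compared with edgeR's quasi-likelihood test, adjusted over all tested genes by the Benjamini-Hochberg method, and calls were limited to genes under 0.05 after adjustment that also differed 2-fold or more. Between the 24h libraries, edgeR called 0 of the 10 genes, where it called 0% of the 12706 genes tested, and DESeq2 also called 0 of the 10. The lowest adjusted p of any gene in this comparison was 0.0515, a value also shared by genes outside the 10. How many of all genes lay this near the threshold was not counted. Just above the threshold were also 5 of the 10, all lower in BMDCs labelled Cacnb3-/-. Il4i1 had a log2 fold change of -0.96 (standard error 0.27, edgeR adjusted p = 0.0515). Ccr7 and Fscn1 had -0.80 and -0.79 (standard errors 0.23 and 0.22, edgeR adjusted p = 0.0515 for each). Cacnb3 and Nudt17 had -0.77 and -0.69 (standard errors 0.23 and 0.21, edgeR adjusted p = 0.0518 for each). Fabp5 had -0.80 (standard error 0.26, edgeR adjusted p = 0.0582).

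The other 4 genes went elsewhere. Socs2 and Samsn1 each had a log2 fold change of 0.61 (standard error 0.25, edgeR adjusted p = 0.0933 and 0.0952) and Tmem123 0.46 (standard error 0.23, edgeR adjusted p = 0.148), all 3 with higher values in BMDCs labelled Cacnb3-/-. Marcksl1 had -0.10 (standard error 0.15, edgeR adjusted p = 0.656). At an unadjusted p under 0.05 stood 8 of the 10 genes, against 38.4% of all genes tested. Without overlap of genotypes were 3 of the 10 (Cacnb3, Fscn1 and Nudt17), against 6.23% of all genes. The median log2 fold change of the 10 genes was -0.73, and that of all genes 0.01.

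The calls in this set rested on the tool and on single cultures. At an adjusted p under 0.05 without a fold minimum, DESeq2 passed 6 of the 10 genes, against 22.5% of all genes, which were Cacnb3, Ccr7, Fscn1, Il4i1, Nudt17 and Fabp5 (DESeq2 adjusted p from 0.00775 to 0.0216). In edgeR, 4 passed without WT culture p974s864, against 18.7% of all genes, and 8 without culture p974s865, labelled Cacnb3-/-, against 35.3%. In each of these 2 fits 1 of the genes also reached 2-fold, Il4i1. With the GC trend removed, the log2 fold change of Cacnb3 was -0.20, of Fscn1 -0.22, of Il4i1 -0.43, of Nudt17 -0.44, of Ccr7 -0.51 and of Samsn1 0.30, all nearer to 0 than as counted. Fabp5 (-0.77), Tmem123 (0.47) and Socs2 (0.52) stayed within 0.1 of their values as counted. At an unadjusted p under 0.05 were then 4 of the 10, against 25.9% of all genes. The part of GC content in these differences was not tested. The summed DC markers, 8 of 8 kept, were at 20400 to 36000 CPM in WT and 14800 to 28400 CPM in libraries labelled Cacnb3-/- of this set. The summed macrophage markers, 10 of 10 kept, were at 1150 to 2890 and 1010 to 2790 CPM. No listed marker of either type was at 0, and their part was not tested.

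**Figure D2:**
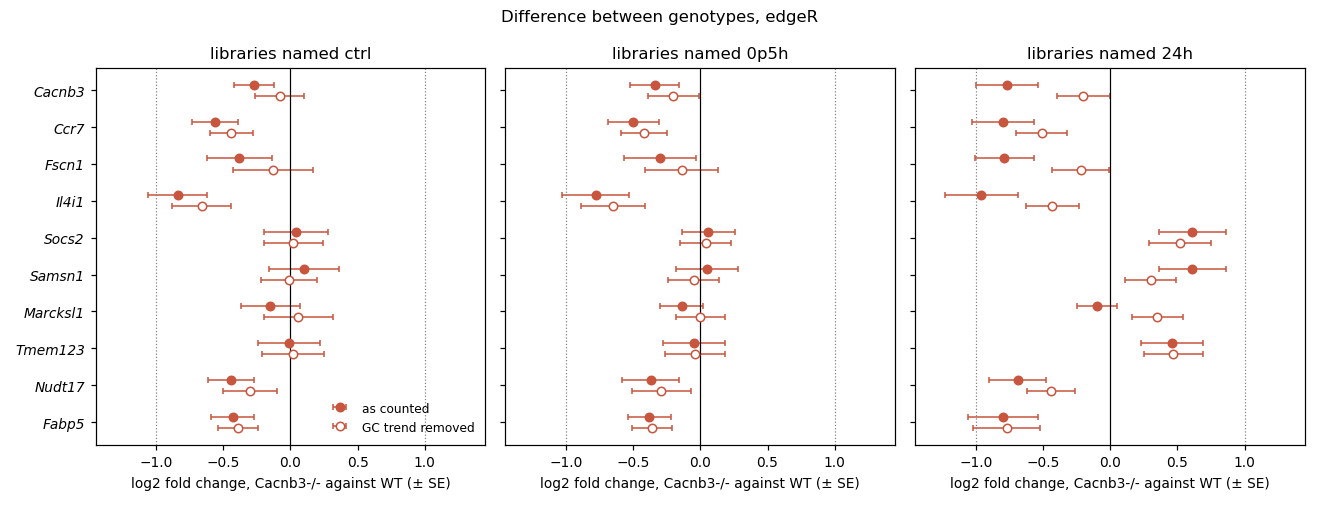
Log2 fold change of each gene between Cacnb3-/- and WT BMDCs with its standard error, in the 3 sets, from counts as deposited (filled) and with each library's GC trend removed (open). Dotted lines mark 2-fold. Cacnb3, Fscn1 and Il4i1 move most toward 0 in the 24h set when the trend is removed, and Marcksl1 changes sign there, from -0.10 to 0.35.

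In the ctrl set, edgeR called 0 of the 10 genes (0% of 13022 genes tested), and in the 0p5h set 0 of the 10 (0% of 12806). DESeq2 called 0 in both. At an unadjusted p under 0.05 were 4 of the 10 in the ctrl set, Ccr7, Il4i1, Nudt17 and Fabp5, against 16.6% of all genes. In the 0p5h set there were 3, Ccr7, Il4i1 and Fabp5, against 16.4%. Without overlap were 1 (Nudt17) and 0 of the 10, against 1.73% and 2.1% of all genes. The log2 fold change of Il4i1 was -0.84 in the ctrl set (standard error 0.22, edgeR adjusted p = 0.243) and -0.78 in the 0p5h set (standard error 0.25, edgeR adjusted p = 0.251). Without WT culture p974s864, Il4i1 was called in the ctrl set. With the 3 libraries of each culture summed, edgeR called 0 of the 10 (0% of 14833), 5 were at an unadjusted p under 0.05 (23.3% of all genes), and DESeq2 called 0. Summed, Il4i1 had a log2 fold change of -0.82 and Ccr7 -0.58 (standard errors 0.21 and 0.17, edgeR adjusted p = 0.127 for each).

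Sets were compared within each genotype, with 5 libraries against 5. In WT, 0 of the 10 genes were called by edgeR from ctrl to 0p5h (0.176% of 13085 genes called), from ctrl to 24h (0.0152% of 13176) and from 0p5h to 24h (0.639% of 12830). In BMDCs labelled Cacnb3-/-, 0 of the 10 were called for the same changes (0.29% of 12750, 0% of 12452 and 0.66% of 12730). At an unadjusted p under 0.05 were 0, 4 and 3 of the 10 in WT, against 4.54%, 8.39% and 11.2% of all genes. In BMDCs labelled Cacnb3-/- there were 0, 1 and 1, against 3.99%, 10.8% and 17.5%. DESeq2 called 0 of the 10 for each.

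Libraries of the same culture number deviated together in 5 of 5 pairs for 5 of these 6 changes, and the culture number was also fitted as a replicate block. For the change from ctrl to 24h in BMDCs labelled Cacnb3-/-, 1 pair did not, and the block, which passed 3 of the 10 there against 8.54% of all genes, is not read as a pairing. In the paired fit several of the genes passed an adjusted p of 0.05 below 2-fold. In WT, Fscn1 rose from ctrl to 24h by 0.71 on the log2 scale (standard error 0.11, edgeR adjusted p = 0.00804 with the block) and Nudt17 by 0.59 (standard error 0.08, edgeR adjusted p = 0.0068 with the block). Both were higher in 5 of 5 WT cultures, and these 2 of 10 stood against 6.05% of all genes. From 0p5h to 24h in WT the paired fit passed 3 of the 10, against 11.3% of all genes. Fscn1 rose by 0.62, Nudt17 by 0.44 and Cacnb3 by 0.43 (edgeR adjusted p = 0.00411, 0.00346 and 0.0457 with the block), each in 5 of 5 cultures. The same 3 passed when the GC trend was also removed, with 0.57, 0.41 and 0.38 (edgeR adjusted p = 0.00195, 0.00192 and 0.0266), against 15.7% of all genes. From ctrl to 0p5h in WT, Ccr7 rose by 0.23 and Samsn1 by 0.21 (edgeR adjusted p = 0.0203 and 0.0266 with the block), 2 of 10 against 5.96% of all genes.

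In BMDCs labelled Cacnb3-/-, the paired fit passed 4 of the 10 from 0p5h to 24h, against 28.6% of all genes. Socs2 rose by 0.69, Tmem123 by 0.59, Samsn1 by 0.53 and Marcksl1 by 0.35 on the log2 scale (edgeR adjusted p = 0.00192, 0.00459, 0.00979 and 0.0219 with the block), each in 5 of 5 cultures. Fscn1 and Nudt17 had changes of 0.20 and 0.14 there (standard errors 0.17 and 0.15, edgeR adjusted p = 0.37 and 0.493 with the block), and Cacnb3 of 0.00 (standard error 0.17, edgeR adjusted p = 0.986 with the block). These 3 values moved when the GC trend was removed in the paired fit. Fscn1 then rose by 0.56 and Cacnb3 by 0.39 (standard errors 0.10 and 0.09, edgeR adjusted p = 0.00334 and 0.0124), and Nudt17 had 0.30 (standard error 0.11, edgeR adjusted p = 0.0719). With Socs2, Tmem123, Samsn1 and Marcksl1, 6 of the 10 passed in that fit, against 22.8% of all genes. From ctrl to 0p5h 0 of the 10 passed with the block, against 2.35% of all genes. Whether the change from 0p5h to 24h differed between genotypes was not tested.

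Whether the changes from ctrl differed between genotypes was tested as an interaction. For the change from ctrl to 0p5h edgeR called 0 of the 10 (0% of 13465 genes), with 0 of the 10 at an unadjusted p under 0.05 (0.223% of all genes), and for that from ctrl to 24h 0 of the 10 (0% of 13536), again with 0 (4.86% of all genes). DESeq2 called 0 for both. For the change to 24h the interaction of Socs2 was 0.58, of Samsn1 0.52 and of Tmem123 0.48 on the log2 scale (standard errors 0.36, 0.38 and 0.32, edgeR adjusted p = 0.753 for each). It was -0.49 for Cacnb3, -0.39 for Fscn1 and -0.24 for Nudt17 (standard errors 0.28, 0.33 and 0.28, edgeR adjusted p = 0.753, 0.768 and 0.817). Without the GC trend the same 3 had -0.10, -0.06 and -0.12, while Socs2 had 0.51, Samsn1 0.32 and Tmem123 0.47. With the replicate block, edgeR called 0 of the 10 for the change to 24h, and 16 of 13536 genes. At an unadjusted p under 0.05 were 3 of the 10, against 2639 of the 13536 genes. Socs2 had 0.63, Samsn1 0.58 and Tmem123 0.52 (standard errors 0.22, 0.19 and 0.17, edgeR adjusted p = 0.233 for each with the block). This fit includes the Cacnb3-/- pair that did not deviate together. A difference between genotypes in these changes was therefore not shown for the 10 genes after adjustment.

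The relation of each gene to Cacnb3 was measured first over the 10 cultures of each set, on log2 CPM, which gave 27 relations. P-values are from two-sided permutation tests with 100000 resamples and were not adjusted over these. The share of all genes was not taken for these permutation tests. In the ctrl set none of the 9 genes had a permutation p under 0.05, and Pearson's r ran from -0.05 for Samsn1 to 0.60 for Il4i1. With the GC trend removed from all counts, Socs2 and Samsn1 had r = 0.79 and 0.73 in this set (permutation p = 0.00799 and 0.018). In edgeR, with genotype as a further term, the removal raised the relation of genes in general. There 4 of the 9 had an unadjusted p under 0.05, against 2566 of 13021 genes, and 370 as counted. In the 0p5h set, Nudt17 followed Cacnb3 with r = 0.87 (permutation p = 0.0003) and Spearman's rho = 0.94 (permutation p = 0.00025). Marcksl1 had r = 0.85 (permutation p = 0.00282; rho = 0.72, p = 0.0236) and Fscn1 r = 0.84 (permutation p = 0.0032; rho = 0.61, p = 0.0666). Without p974s843 and p974s865, the 2 cultures farthest from the median of Cacnb3, r was 0.75 for Nudt17 (permutation p = 0.0264), 0.49 for Marcksl1 (permutation p = 0.236) and 0.45 for Fscn1 (permutation p = 0.249). Those 2 cultures, both labelled Cacnb3-/-, had the lowest Cacnb3 of this set. Leaving them out also narrowed its range, so the lower r cannot show whether the relations of Marcksl1 and Fscn1 rested on them. After removal of the GC trend, Marcksl1 had r = 0.86, Nudt17 0.85 and Fscn1 0.81 here (permutation p = 0.00106, 0.00102 and 0.00464). Samsn1 and Tmem123 also had a permutation p under 0.05, with r = 0.71 and 0.69 (permutation p = 0.0201 and 0.0212). The edgeR fit with genotype and the trend removed gave 5 of the 9 at an unadjusted p under 0.05, against 2729 of 12805 genes.

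In the 24h set, 6 of the 9 genes had a permutation p under 0.05. In edgeR, with Cacnb3 as the only term, 7 of the 9 had an unadjusted p under 0.05 here, against 5447 of 12705 genes. In the 0p5h set that fit gave 3 of the 9, against 678 of 12805 genes. Nudt17 had r = 0.93 (permutation p = 0.00012; rho = 0.93, p = 0.00038), Fscn1 r = 0.86 (permutation p = 0.00231; rho = 0.83, p = 0.00479) and Ccr7 r = 0.84 (permutation p = 0.00277; rho = 0.77, p = 0.0124). Il4i1 had r = 0.80 and Fabp5 r = 0.73 (permutation p = 0.00519 and 0.0157; rho = 0.75 and 0.71, p = 0.0175 and 0.0266). Socs2 ran the other way with r = -0.67 (permutation p = 0.0337; rho = -0.64, p = 0.0542). Without p974s843 and p974s864, r of these 6 genes was 0.92, 0.85, 0.87, 0.84, 0.80 and -0.86, in that order. Samsn1 and Tmem123, which had r = -0.56 and -0.40 over all 10 cultures, then had -0.84 and -0.78 (permutation p = 0.0109 and 0.0249). Removing the GC trend left 1 of the 9 genes with a permutation p under 0.05 in this set, Nudt17 with r = 0.75 (permutation p = 0.0161; rho = 0.58, p = 0.089). Fscn1 then had r = 0.62 and Ccr7 0.47 (permutation p = 0.0618 and 0.176), Il4i1 0.35, Fabp5 0.20 and Socs2 -0.15 (permutation p = 0.309, 0.592 and 0.691).

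In this set Cacnb3 itself separated the genotypes, so the relation was also taken on deviations from the mean of each genotype, permuted within genotype. Nudt17 then kept r = 0.84 in the 24h set (permutation p = 0.00597) and 0.81 in the 0p5h set (permutation p = 0.0142). In the 0p5h set, Marcksl1 had r = 0.83 and Fscn1 0.79 (permutation p = 0.0059 and 0.0212). In the 24h set, Fscn1 had 0.64, Ccr7 0.61, Il4i1 0.54, Fabp5 0.44 and Socs2 -0.47, none with a permutation p under 0.05. A relation within 1 genotype, with 5 cultures, was not tested. Over the means of the 3 libraries of each culture, the 2 genotypes formed separate clusters of Cacnb3, at 1190 to 1610 CPM in WT and 871 to 1080 CPM in BMDCs labelled Cacnb3-/-, so no pooled r is given. On deviations from the genotype mean, r was 0.79 for Marcksl1 and 0.75 for Nudt17 (permutation p = 0.00639 and 0.011; rho = 0.71 and 0.62, p = 0.0293 and 0.0542). Fscn1 had 0.62, Tmem123 0.38, Samsn1 0.27 and Socs2 0.17. Negative values were those of Ccr7 (-0.09), Fabp5 (-0.35) and Il4i1 (-0.38). None of the genes other than Marcksl1 and Nudt17 had a permutation p of r under 0.05 here.

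**Figure D3:**
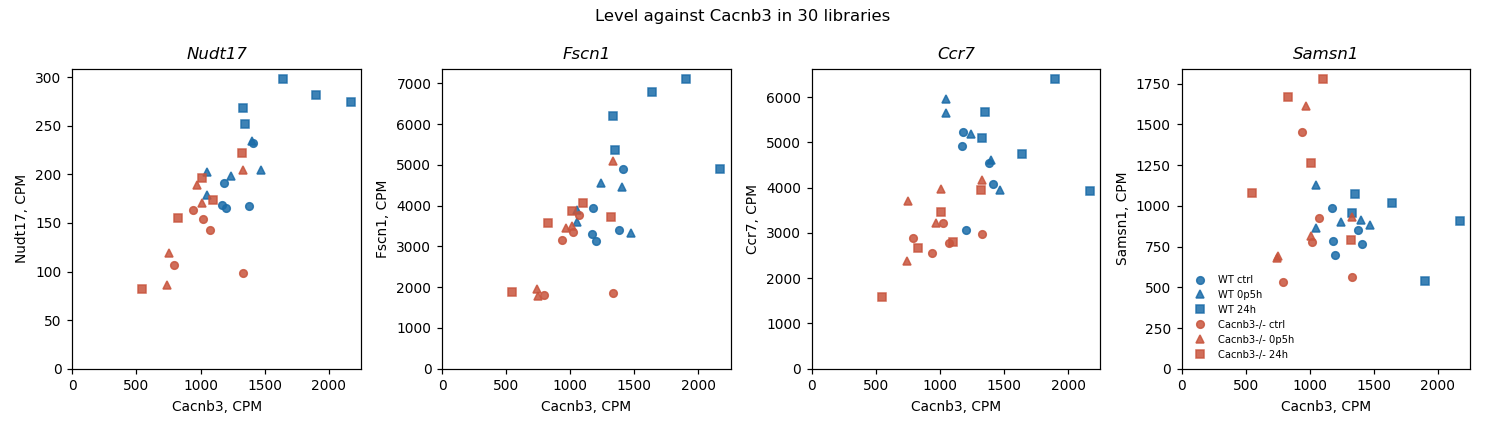
CPM of Nudt17, Fscn1, Ccr7 and Samsn1 (y axes) against CPM of Cacnb3 (x axes) in 30 libraries, by genotype (colour) and set (shape). On deviations from group means r was 0.67 for Nudt17, 0.55 for Fscn1, 0.38 for Ccr7 and -0.06 for Samsn1, and the library highest in Cacnb3, WT culture p974s864 named 24h (2170 CPM), had the lowest Fscn1 of its group (4910 CPM). The 3 libraries of a culture are not independent.

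The same relation was fitted across all genes in edgeR, with genotype and the log2 CPM of Cacnb3 as terms, where a slope is the log2 change of a gene for a doubling of Cacnb3. At an adjusted p under 0.05, 0 of the 9 genes were called in each set and with libraries summed, while the share of all genes was 0% of 13021 in ctrl, 0% of 12805 in 0p5h, 0.213% of 12705 in 24h and 0% of 14832 summed. At an unadjusted p under 0.05 were 0 of the 9 in ctrl, against 2.84% of all genes, 3 in 0p5h, against 10.8%, and 1 in 24h, against 17%. Summed there was 1, against 20.2%, Il4i1, whose slope was negative (-1.78, standard error 0.78, edgeR adjusted p = 0.236). Nudt17 had a slope of 1.06 in 0p5h and 0.79 in 24h (standard errors 0.29 and 0.21, edgeR adjusted p = 0.244 and 0.128). Fscn1 and Marcksl1 had 1.33 and 0.72 in 0p5h (standard errors 0.38 and 0.26, edgeR adjusted p = 0.249 and 0.338). DESeq2 passed 1 of the 9 in 0p5h, Fscn1 (DESeq2 adjusted p = 0.023; 1.83% of all genes), and 1 in 24h, Nudt17 (DESeq2 adjusted p = 0.00952; 4.03% of all genes). With the GC trend removed from counts and from Cacnb3, edgeR passed 2 of the 9 in 0p5h, against 4.71% of all genes, Marcksl1 (0.85, edgeR adjusted p = 0.0364) and Nudt17 (0.98, edgeR adjusted p = 0.0499). Without the genotype term edgeR passed 6 of the 9 in 24h, against 28.2% of all genes.

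Across all 30 libraries, after subtracting the mean of each genotype and set, r with Cacnb3 was 0.67 for Nudt17, higher than for 99.3% of 13754 genes, and 0.55 for Fscn1, higher than for 96.9%. These values are descriptions, since 3 libraries share a culture. Ccr7 had r = 0.38, Il4i1 0.30, Fabp5 0.29, Marcksl1 0.17, Tmem123 0.04, Samsn1 -0.06 and Socs2 -0.15, all between the 5th and the 95th percentile of all genes (-0.45 and 0.50). The order changed when each library's GC trend was removed. Nudt17 had 0.69 and Fscn1 0.63, followed by Tmem123 (0.59), Samsn1 (0.54), Marcksl1 (0.45) and Socs2 (0.41). Ccr7 (0.19), Il4i1 (0.12) and Fabp5 (-0.03) came near 0. All genes also spread more widely on this scale, with 5th and 95th percentiles of -0.62 and 0.58. Nudt17 and Fscn1 were then higher than 98.3% and 96.6% of genes, and Tmem123 than 95.2%. Samsn1, Marcksl1 and Socs2, higher than 92.7%, 88.0% and 85.1%, lay within that range. Across 13588 genes, r with Cacnb3 itself went with GC content (r = 0.34 across genes), and the level of Cacnb3 went with the library's tilt (r = 0.56 over 30 libraries). With the trend removed the value across genes was 0.01, which the removal brings about by design. The part of GC content in these relations was not tested.

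The sequencing lane named in the column headers gave a further split. Within lanes 2 and 3, with 10 libraries each, r of Nudt17 with Cacnb3 was 0.76 and 0.74, and r of Fscn1 0.62 and 0.68. Within lane 1, with 10 libraries, it was 0.01 for Nudt17 and -0.35 for Fscn1, so the relation was not seen there. Lane 1 held WT cultures p974s850 and p974s864, the ctrl library of WT culture p974s846, and p974s851, labelled Cacnb3-/-. Lane is thus tied to culture and genotype, and libraries of 1 culture are not independent. The deviations of Cacnb3 spread less in lane 1 (SD 0.14 on the log2 scale) than in lanes 2 and 3 (SD 0.27 and 0.38). With the lane as a covariate in edgeR, 6 of the 10 were at an unadjusted p under 0.05 between genotypes in 24h, against 3797 of 12706 genes. For the relation to Cacnb3 in 24h, that fit passed 0 of 12705 genes.

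**Figure D4:**
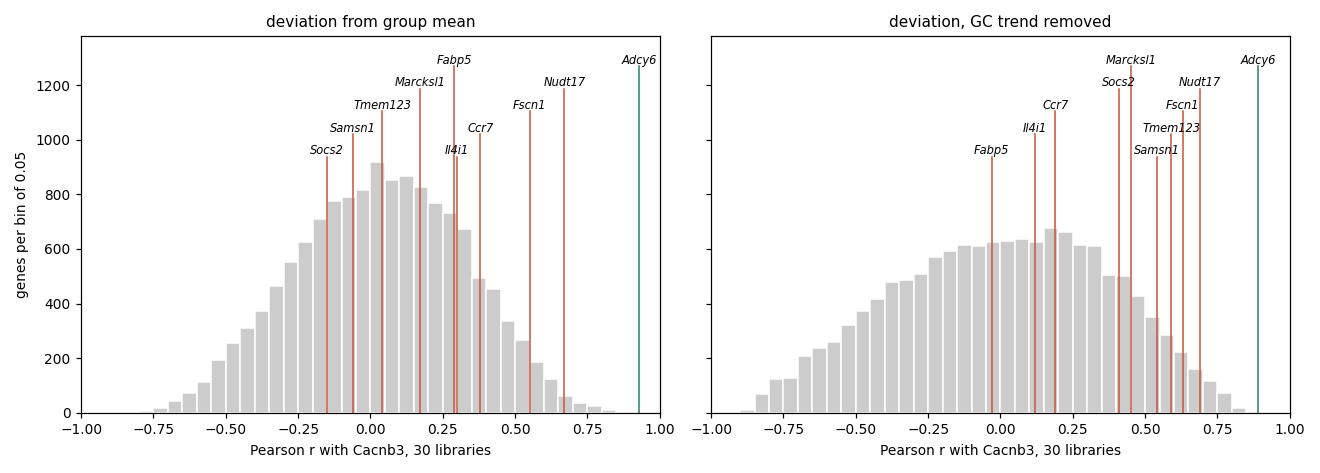
Number of genes by their Pearson r with Cacnb3 over 30 libraries (bins of 0.05), on deviations from group means of log2 CPM (left) and with the GC trend removed (right). Lines mark the 9 genes (red) and Adcy6 (green). Nudt17 and Fscn1 stand at 0.67 and 0.55 on the left. Socs2, Samsn1 and Tmem123 move from near 0 or below to between 0.41 and 0.59 on the right. The 95th percentile of all genes is 0.50 on the left and 0.58 on the right.

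Among themselves, the genes fell into blocks by the same measure over 30 libraries. Ccr7 and Il4i1 had r = 0.91, Il4i1 and Fabp5 0.85, and Ccr7 and Fabp5 0.83. Samsn1 and Tmem123 had r = 0.96, the highest of the 45 pairs, Socs2 and Samsn1 0.89, and Socs2 and Tmem123 0.81. Fscn1 and Nudt17 had 0.87, Fscn1 and Marcksl1 0.73, and Marcksl1 and Nudt17 0.66. Between the first and the second block r lay between -0.41 and 0.01, and Fscn1 and Nudt17 had positive r with both. With the GC trend removed, Samsn1 and Tmem123 had 0.95 and Ccr7 and Il4i1 0.86, and Fscn1 had 0.80 with Samsn1 and 0.81 with Tmem123. The first and the second block were then less apart, with r between them from -0.37 (Fabp5 with Socs2) to 0.41 (Il4i1 with Samsn1). Ccr7 had 0.35 with Samsn1 and 0.31 with Tmem123, while Fabp5 stayed below 0 with all genes of the second block. Cacnb3 was nearest to Nudt17 on either scale.

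**Figure D5:**
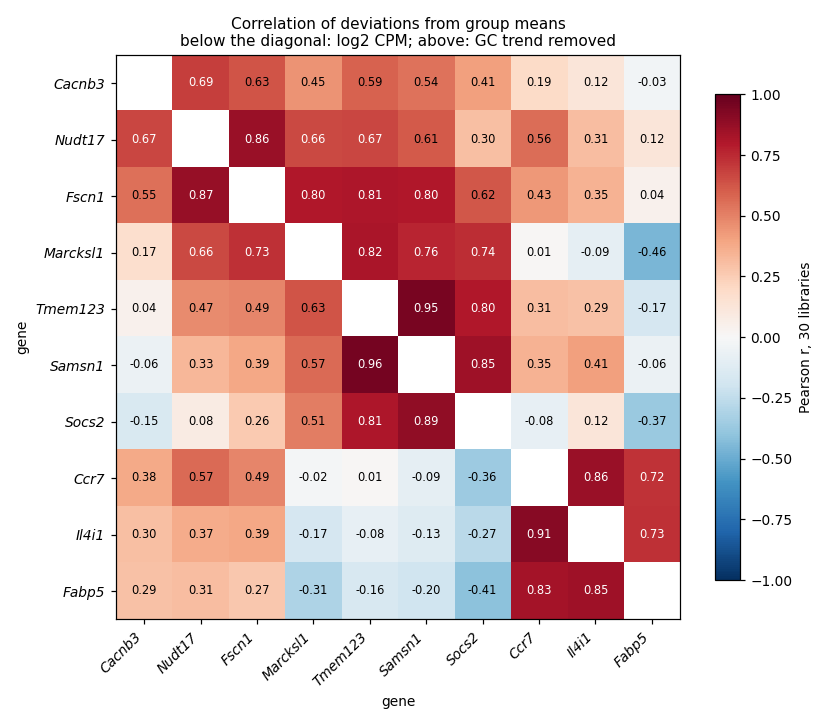
Pearson r between each pair of the 10 genes over 30 libraries on deviations from group means, from log2 CPM (below the diagonal) and with the GC trend removed (above). Ccr7, Il4i1 and Fabp5 form one block and Samsn1, Tmem123 and Socs2 another on both scales. The r between these blocks is at most 0.01 below the diagonal but reaches 0.41 above it.

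The gene whose level was most like that of Cacnb3 in the whole table was Adcy6, an adenylyl cyclase, with r = 0.93 over the 30 libraries (0.89 with the GC trend removed). Adcy6 (chr15:98589994-98607633, reverse strand) is the next gene upstream of Cacnb3, and the starts of the 2 genes face away from each other across 24586 bases. Its mean was 482 ± 49.4, 516 ± 95.0 and 671 ± 115 CPM in WT and 413 ± 40.1, 438 ± 86.5 and 397 ± 130 CPM in libraries labelled Cacnb3-/- named ctrl, 0p5h and 24h (SD, n = 5). Per library, the reads of Adcy6 were between 0.351 and 0.515 of those of Cacnb3. The neighbours on the other side did not share this, with r = 0.07 for Ddx23 and 0.00 for Rnd1. The next genes were Adam11 (r = 0.85), Ivd, an enzyme of leucine breakdown (0.83), Prr33 (0.82), the splicing factor gene U2af2 (0.82), Mcm7, a subunit of the replicative helicase (0.81), Ksr1, a scaffold of the RAF kinase pathway (0.81), and the ubiquitin ligase gene Huwe1 (0.80). Nudt17, at 0.67, was below these 8. The lowest r were those of Snx2 (-0.84), Ralb, Phf8 and Fosl2 (-0.80 each).

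A wider list of 32 genes of the mature DC programme, co-stimulatory molecules, chemokines, cytokines and NF-κB pathway genes, was tested in the same fits. Between genotypes in the 24h set edgeR called 0 of 32 (0% of all genes), and the median log2 fold change was -0.45. At an unadjusted p under 0.05 were 18, against 38.4% of all genes, and 16 of these were lower in BMDCs labelled Cacnb3-/-. DESeq2 called 2 of 32, against 637 of 14296 genes. These were Il12b, a subunit of the interleukin 12 family (-1.32, DESeq2 adjusted p = 0.013), and the adhesion molecule gene Icam1 (-1.13, DESeq2 adjusted p = 0.0152). In edgeR the 4 with the lowest p were Nfkb2 and Arc, with log2 fold changes of -0.85 and -0.90, Ccl5, a T cell attracting chemokine (-0.93), and the myosin gene Myo1g (-0.96). Each had an edgeR adjusted p of 0.0515, the lowest of any gene in this comparison. In the ctrl and 0p5h sets the medians were -0.41 and -0.33, with 0 of 32 called (0% of all genes in each). At an unadjusted p under 0.05 were 15 and 9, all lower in BMDCs labelled Cacnb3-/-, against 16.6% and 16.4% of all genes. DESeq2 called 2 of 32 in the ctrl set, Il12b (-2.21) and Ccl5 (-1.03), and 1 in the 0p5h set, Il12b (-1.49), with DESeq2 adjusted p = 0.00158, 0.0159 and 0.0349. Of all genes it called 146 of 14328 in the ctrl set and 82 of 13129 in the 0p5h set. The 3 medians, from ctrl to 24h, with the GC trend removed were -0.33, -0.30 and -0.30. In the relation to Cacnb3 edgeR passed 0 of 32 in each set, against 0%, 0% and 0.213% of all genes from ctrl to 24h. At an unadjusted p under 0.05 were 0, 4 and 6, against 2.84%, 10.8% and 17% of all genes. DESeq2 passed 1 in 0p5h, the retinoic acid enzyme gene Aldh1a2 (slope -2.41, DESeq2 adjusted p = 0.0203), and 1 in 24h, Apol7c (slope 1.28, DESeq2 adjusted p = 0.00131). These stood against 1.83% and 4.03% of all genes. The summed level of the 32 genes had r = 0.04 with Cacnb3 over the 30 libraries after subtracting group means, and that of the 10 genes, Cacnb3 included, 0.42. The latter sum holds Cacnb3 itself, so these values cannot be compared, and a sum without Cacnb3 was not taken.

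Between sets, edgeR called 0 of the 32 in either genotype without the block. From ctrl to 0p5h, ctrl to 24h and 0p5h to 24h, 2, 1 and 7 were at an unadjusted p under 0.05 in WT. Of all genes these were 4.54%, 8.39% and 11.2%. In BMDCs labelled Cacnb3-/- there were 2, 7 and 10, against 3.99%, 10.8% and 17.5%. DESeq2 called 2 genes there, Il12b and Apol7c. It called 1 of 32 from ctrl to 0p5h in BMDCs labelled Cacnb3-/-, against 54 of 16340 genes. From 0p5h to 24h it called 2 in WT (147 of 12885 genes) and 1 in BMDCs labelled Cacnb3-/- (201 of 13476). With the replicate block, the cytokine gene Il12b was called, rising from ctrl to 0p5h by 1.02 in WT and 1.40 in BMDCs labelled Cacnb3-/- and falling from 0p5h to 24h, with log2 fold changes of -1.40 and -1.25. Apol7c, an apolipoprotein gene, rose from 0p5h to 24h by 1.23 in each genotype (edgeR adjusted p = 0.000782 and 0.00113 with the block). Of all genes the block called 76 of 13085 in WT and 82 of 12750 in BMDCs labelled Cacnb3-/- from ctrl to 0p5h. From 0p5h to 24h it called 228 of 12830 and 367 of 12730. None of the 10 genes reached a 2-fold change between sets in the paired fit.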

How the data were processed

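Polyadenylated RNA of 30 BMDC libraries was sequenced by the authors. The deposited values are raw read counts per gene, made with featureCounts 1.5.1 from the first read of each pair, on GRCm38 with Ensembl release 79, per the file headers. No strand option is in the header. The submitters' processing notes name STAR 2.4, mm10 and DESeq2. All coordinates are on GRCm38. No normalization was applied before deposit, and 0 columns of other samples were present.

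Counts were filtered with filterByExpr, scaled with TMM and tested with the quasi-likelihood test of edgeR 4.0.16, adjusted by the Benjamini-Hochberg method over all genes tested. CPM and RPKM were computed from the counts, and correlations used log2 CPM with a prior count of 2. Calls were limited to genes with an adjusted p under 0.05 that also differed 2-fold or more; a relation to Cacnb3 was called on the adjusted p alone. Genes were named by a fixed list, plus the 8 genes with the highest and the 4 with the lowest correlation with Cacnb3, and, of the wider list, the 4 with the lowest p between genotypes in the set named 24h and those called by a tool; the last were chosen after their values were seen. The members and lists (mature migratory DC, mature DC programme, DC, macrophage, granulocyte, T cell, B cell, cycling cell and strain genes) were chosen with earlier results of these data known. Groups came from the labels.

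The GC trend was removed from each library with a lowess curve (span 0.3) against GC content. The curve was that of the deviation of log2 CPM from the gene mean, fitted on genes with a mean log2 CPM over 1. GC content was that of the longest transcript of each gene in GENCODE M39, matched for 39033 genes. Libraries of one culture number were checked for pairing by the correlation of their deviations from group means over 13755 genes. For ctrl with 0p5h, ctrl with 24h and 0p5h with 24h, the lowest pair of WT cultures had 0.6, 0.437 and 0.419, and the lowest pair of Cacnb3-/- cultures 0.317, 0.0759 and 0.431, so the number marked a shared culture in 5 of 6 comparisons. Alternatives were DESeq2 1.42.0, its size factors in edgeR, limma-voom (limma 3.58.1), no filter, GC trend removed, the replicate block, 1 fit to all 30 libraries, no genotype term and each culture left out. The sequencing lane as a covariate and DESeq2 with the block were added after seeing the data. The fits were tested on simulated counts. The range of counts per library, 8237393 to 32164225, sets the counting error, and the 10 genes had 643 to 182395 reads per library.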

Additional observations from a re-analysis of the deposited data

Results flagged for a closer look

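Of 60 groups of 5 libraries (10 genes in 6 groups), 6 held a library whose gap to the nearest other value was over 0.71 of the range of the group. Chance alone gives about 1 in 20 for independent groups. The groups here share libraries and genes that vary together, so their number is not set against that rate. Fscn1 was at 1880 CPM in culture p974s843 of the libraries labelled Cacnb3-/- and named 24h, with the nearest at 3580 CPM. Socs2 was at 158 CPM in WT culture p974s856 named 24h, with the nearest at 279 CPM. Samsn1 was at 1130 CPM in WT culture p974s855 named 0p5h, with the nearest at 911 CPM. In culture p974s852 of the libraries labelled Cacnb3-/- and named 0p5h, Samsn1 was at 1610 CPM, with the nearest at 930 CPM, and Tmem123 at 8400 CPM, with the nearest at 4840 CPM. Tmem123 was at 4210 CPM in WT culture p974s864 named ctrl, with the nearest at 5040 CPM. For the 10 genes, no comparison between genotypes of a change between sets passed a test of the difference after adjustment.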

How the results depend on the processing

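Of 722 alternative values of 48 results, 625 kept their direction and their side of the threshold, 87 moved past the threshold in the same direction and 10 changed direction. Left-out cultures moved the number of the 10 genes called between genotypes over the range from 0 to 1 in the sets named ctrl and 24h, in both cases through Il4i1. For the relation to Cacnb3 in 0p5h, where edgeR called 0 of 9, DESeq2 called 1 and the fit with the GC trend removed 2. In 24h DESeq2 called 1, with 536 of 13297 genes in all, and the fit with no genotype term 6, with 3588 of 12705. With libraries summed, the GC trend removed gave 1 and left-out cultures 0 to 1. Of the 27 correlations within sets, 9 had a permutation p under 0.05, and 4 did on deviations from the genotype mean. The share of all genes was not taken for either. With the GC trend removed, Marcksl1 changed direction between genotypes in 24h (0.35) and summed (0.08). The other changes of direction came from left-out cultures, given as log2 fold changes. Summed, Samsn1 ranged from -0.03 (without p974s852) to 0.34 and Tmem123 from -0.11 (without p974s852) to 0.22. From ctrl to 24h in WT, Socs2 ranged from -0.07 (without p974s864) to 0.17, with -0.0022 without p974s850. From 0p5h to 24h in WT, Samsn1 ranged from -0.12 to 0.05 (without p974s856) and Tmem123 from -0.03 (without p974s850) to 0.12. From 0p5h to 24h in Cacnb3-/- cultures, Fscn1 was at -0.03 and Nudt17 at -0.07 without p974s865, and up to 0.35 and 0.27 otherwise. The cause was not tested. Under the replicate block the number of the 10 genes called at 2-fold stayed 0 in each comparison of sets, the genes it passed without a fold minimum are given above, and it changed no other call of the paired comparisons. From ctrl to 24h in Cacnb3-/- cultures, where 4 of 5 pairs deviated together and p974s843 did not (0.0759), the block passed Samsn1, Socs2 and Tmem123 without a fold minimum, 3 of 10 against 8.54% of all genes. Over all genes the counts of calls varied far more, and for genotype in 24h they were 0 in edgeR, 637 in DESeq2, 376 without the filter, 615 with all 30 libraries in 1 fit, and up to 1129 without p974s865.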
